A study of Mus musculus with 2 samples.

Results

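The insulin-like growth factor (IGF) genes examined here were the ligands Igf1 and Igf2, the receptors Igf1r and Igf2r, and the binding proteins Igfbp2, Igfbp3, Igfbp4, Igfbp5, Igfbp6 and Igfbp7. They were represented by every probe set whose platform annotation listed exactly 1 gene symbol, that of 1 of these 10 genes, which gave 28 of the 34945 single-symbol probe sets on the array. The data were 2 Affymetrix arrays of ventral prostate, the secretory lobe of the mouse prostate, from male C57BL/6J mice of 3 months. One sample was U19/Eaf2 +/+ (wild type) and the other U19/Eaf2 -/-, and neither label named a treatment or a further allele. U19/Eaf2 is an androgen-induced partner of the ELL transcription elongation factors. Each group held 1 sample, so that no comparison could be tested and none has an error between animals. The sample titles name prostates in the plural, and no source used here says whether animals were pooled or how the allele was made.

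The Eaf2 probe set itself read 691 in wild type and 702 in the other sample, which checks nothing about the label unless the probe set lies in the deleted part, and that is not known here. The second sample is therefore called the labelled knockout. A floor of 166, the 50th percentile of the signals of both arrays, stood for the lower limit of measurement. In wild type 51.6% of probe sets reached it, and in the labelled knockout 48.4%. Where 1 array was below the floor the ratio is only a limit. Fold values of that kind are marked by the words "at least", and medians and ranges can rest on such limits. Of the ventral prostate secretory markers, Spink1 read 62610 in wild type and 64718 in the labelled knockout, and Pbsn read 34870 and 26812. Mmp7 was the dimmest, at 1022 and 784. Sbp and Defb50 of that list had no probe set with exactly 1 gene symbol. The ventral prostate secretory list as a whole had a median log2 ratio (labelled knockout over wild type) of -0.16 over 6 genes, 3 higher and 3 lower. The 5 seminal vesicle markers examined (Svs2, Svs3a, Svs4, Svs5 and Svs6) were below the floor on both arrays.

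IGF1 and IGF2 are secreted growth factors that act mainly through the receptor tyrosine kinase IGF1R, which signals through IRS and SHC adaptors to the PI3K-AKT and ERK cascades. IGF2R, the cation-independent mannose 6-phosphate receptor, binds IGF2, takes it up for breakdown and sorts lysosomal enzymes. The binding proteins hold the ligands outside the cell and can limit or prolong their action. In the prostate, IGF1 is a classical paracrine factor of the stroma that reaches receptors on the epithelium, and Igfbp3 and Igfbp5 are known for their increase after castration.

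The IGF1 receptor transcript was higher in the labelled knockout, and both ligands and all 6 binding proteins read lower by their brightest probe sets, Igfbp4 with a log2 ratio of -0.05 and Igfbp6 with -1.07. Each gene was summarised by its brightest probe set, that with the highest log2 signal averaged over the arrays. By that measure 2 of 10 genes were higher and 8 lower. The SD per probe set between probe sets of the same gene was 0.35 on the log2 scale. Of the 8 lower genes, Igf1, Igfbp2, Igfbp3 and Igfbp4 lay within that distance of 0, and Igfbp5, at -0.353, lay at its edge. Of the 11671 genes that reached the floor on at least 1 array, 53.0% were lower. The family median log2 ratio (labelled knockout over wild type) was -0.27, against -0.03 over those 11671 genes. All 10 genes reached the floor. Igfbp6 and Igfbp7 were past 2-fold lower, 2 of 10, where 0.883% of all genes were. None of the 10 was past 2-fold higher, where 0.591% of all genes were, and Igf1r missed that threshold at 1.999-fold. At 1.5-fold, 1 gene was higher and 3 were lower, where 4.69% and 6.26% of all genes were. With 10 genes these counts are small, and each rests on the same 2 arrays.

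The sequences upstream of the 3 genes farthest from no change are shown because these genes lay in opposite directions and their starts differ in base composition. Each is the 250 bases before the gene's start from RefSeq on GRCm38.p6, 5' to 3' on the gene's strand: chr7:67952007-67952256 on the plus strand for Igf1r, chr15:102143936-102144185 on the plus strand for Igfbp6 and chr5:77408046-77408295 on the minus strand for Igfbp7. Capitals mark GGGCGG (the GC box) or TATAAA (the TATA box) on either strand.
Igf1r: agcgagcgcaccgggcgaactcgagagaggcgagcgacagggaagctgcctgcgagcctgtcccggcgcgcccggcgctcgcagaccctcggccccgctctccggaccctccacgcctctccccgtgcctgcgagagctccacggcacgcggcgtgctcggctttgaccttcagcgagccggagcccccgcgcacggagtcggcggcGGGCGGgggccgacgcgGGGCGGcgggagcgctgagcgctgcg
Igfbp6: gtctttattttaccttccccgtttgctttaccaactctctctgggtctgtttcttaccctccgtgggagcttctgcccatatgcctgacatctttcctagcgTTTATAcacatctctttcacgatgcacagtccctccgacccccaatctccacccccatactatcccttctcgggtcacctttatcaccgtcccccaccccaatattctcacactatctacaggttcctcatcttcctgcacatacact
Igfbp7: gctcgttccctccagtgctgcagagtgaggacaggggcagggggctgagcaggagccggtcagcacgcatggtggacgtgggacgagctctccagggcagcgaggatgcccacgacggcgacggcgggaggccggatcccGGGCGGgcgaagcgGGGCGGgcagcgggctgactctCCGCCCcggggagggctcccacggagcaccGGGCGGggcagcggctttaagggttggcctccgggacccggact
The Igf1r window was 77.6% G and C with 42 CG dinucleotides, and the Igfbp7 window was 74.0% G and C with 26. The Igfbp6 window was 49.6% G and C with 7, near the median of 52.4% and 6 over 32851 promoter windows of the same length. Igf1r had 2 GC boxes and Igfbp7 had 4, a motif found in 32.7% of all windows. Igfbp6 had no GC box and 1 TATA box match, read on the opposite strand, a motif found in 12.4% of all windows. The androgen receptor half-site AGAACA, found in 16.1% of windows, and the forkhead motif GTAAACA, found in 3.17%, were searched on both strands as well and had no match in these 3 windows. No 2 motif matches overlapped. The shares above are per window. Of the 14 windows of all 10 genes, 6 had a GC box, in 5 genes. A TATAAA match on either strand was in 2 windows (Igfbp4 and Igfbp6), an AGAACA match in 2 (Igf2 and Igfbp2) and a forkhead match in 0. Only exact matches were counted, at any position in a window, so a TATA-like element of other letters would be missed. A match is a description of these letters, and no binding was measured.

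**Figure D1:**
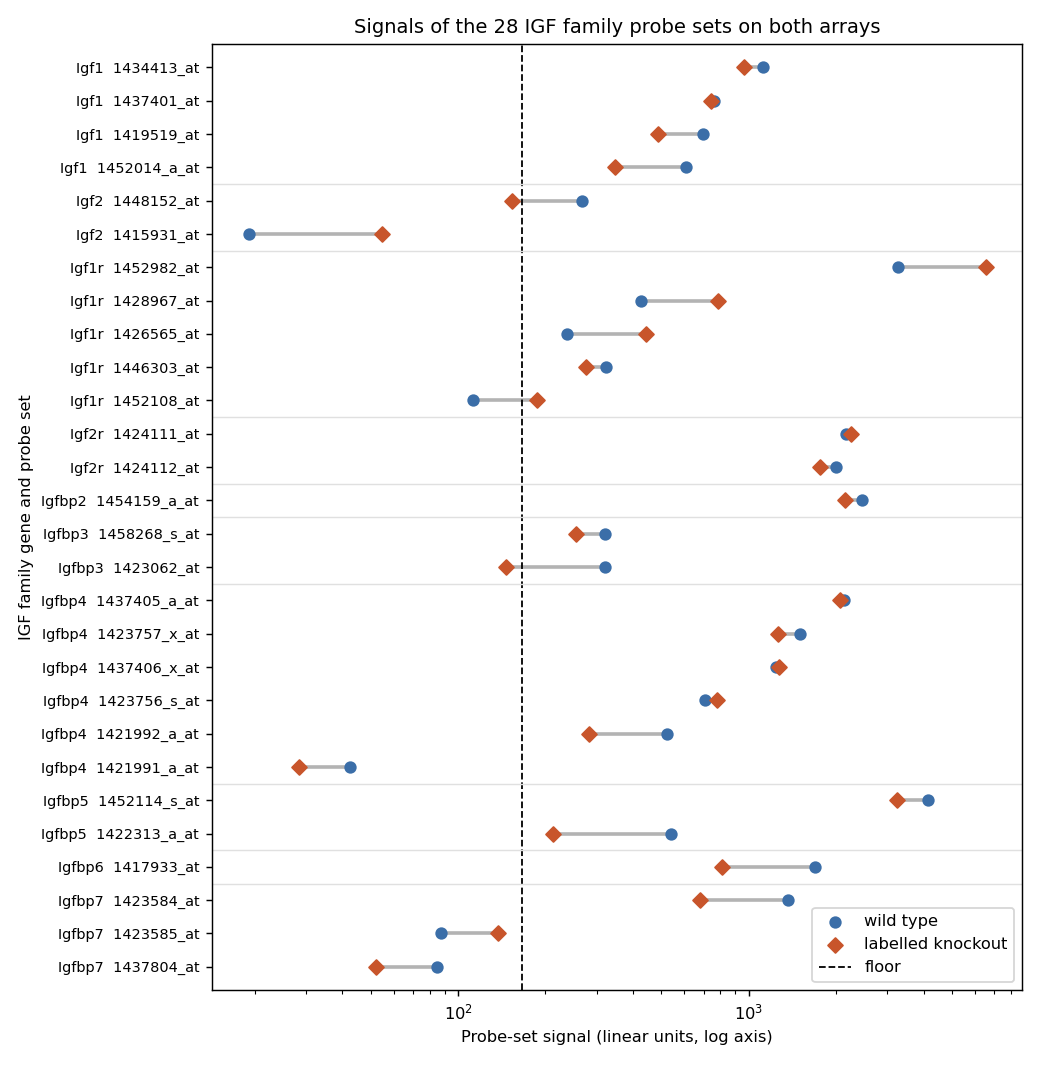
Signals of the 28 IGF family probe sets (linear units on a log axis) in wild type (circles) and in the labelled knockout (diamonds), with a grey line joining the 2 arrays and a dashed line at the floor of 166. Igf1r was higher in the labelled knockout in 4 of 5 probe sets, and the only Igfbp6 probe set read 1698 in wild type and 809 in the labelled knockout.

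Of the ligands, Igf1, which encodes the main growth factor of the postnatal IGF system, was lower in all 4 of its probe sets. Probe set 1434413_at, the brightest, read 1119 in wild type and 968 in the labelled knockout, a log2 ratio of -0.21. Probe set 1437401_at read 762 and 743, so that the arrays were almost equal there, and it turned to a log2 ratio of 0.02 under median centring. The other two probe sets were farther apart. Probe set 1419519_at read 697 and 487, 1.43-fold lower. Probe set 1452014_a_at read 611 and 346, 1.76-fold lower. Among the 453 genes with 4 probe sets measured in both samples, all 4 were lower in 46, or 10.2%, and all 4 higher in 56, or 12.4%. The spread within Igf1, 0.78 on the log2 scale from its lowest to its highest probe set, was larger than that of 80.8% of the 4497 genes with at least 2 such probe sets, so the size of the Igf1 difference is not settled by these data.

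Igf2, the fetal growth factor expressed from the paternal allele, was near the floor. Probe set 1448152_at read 267 in wild type and 154 in the labelled knockout, below the floor, so that Igf2 was at least 1.61-fold lower. Its other probe set, 1415931_at, listed under the same source sequence, read 19.03 and 54.7, below the floor on both arrays and in the opposite order. The direction for Igf2 therefore rests on 1 probe set. Neither probe set was far above the floor on either array.

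Of the receptors, Igf1r was higher in the labelled knockout in 4 of its 5 probe sets. Probe set 1452982_at read 3271 in wild type and 6539 in the labelled knockout, 1.999-fold higher. Probe set 1428967_at, listed under the same source sequence, read 427 and 784, 1.84-fold higher. Probe set 1426565_at, from a different source sequence, read 237 and 444, 1.88-fold higher. The log2 ratios of these 3 probe sets ran from 0.88 to 0.999. They come from 2 source sequences, each of which serves a pair of probe sets. The partner of 1426565_at, 1452108_at, was below the floor at 112 in wild type and read 187 in the labelled knockout, at least 1.13-fold higher. With no floor its log2 ratio was 0.74. The remaining probe set went the opposite way. It was 1446303_at, from another source sequence, and read 322 and 277, 1.16-fold lower. That probe set gave Igf1r a range of 1.22 on the log2 scale, larger than that of 95.8% of genes.

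Few genes had as many probe sets at this distance from no change. Of 1845 genes with 3 or more probe sets measured in both samples, 8, or 0.434%, had 3 or more that were at least 1.5-fold higher in the labelled knockout, and Igf1r was one of the 8. In the other direction 10 genes, or 0.542%, had 3 or more that were at least 1.5-fold lower. Ranked by the median over such probe sets, 0.89 for Igf1r, it was number 6 from the highest of the 1845. The minimum of 3 probe sets was chosen after these values were seen. By its brightest probe set alone Igf1r was number 70 from the highest of 11671 genes.

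Igf2r, whose product clears IGF2 and sorts lysosomal enzymes, was equal on both arrays within the spread of its probe sets. Probe set 1424111_at read 2159 and 2256, a log2 ratio of 0.06. Probe set 1424112_at read 1995 and 1760, a log2 ratio of -0.18. The probe sets lay on either side of 0, and their mutual range of 0.24 was smaller than the median range of 0.43 over genes with at least 2 probe sets. Of the 2 IGF receptors, only Igf1r was past 1.5-fold by its brightest probe set.

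**Figure D2:**
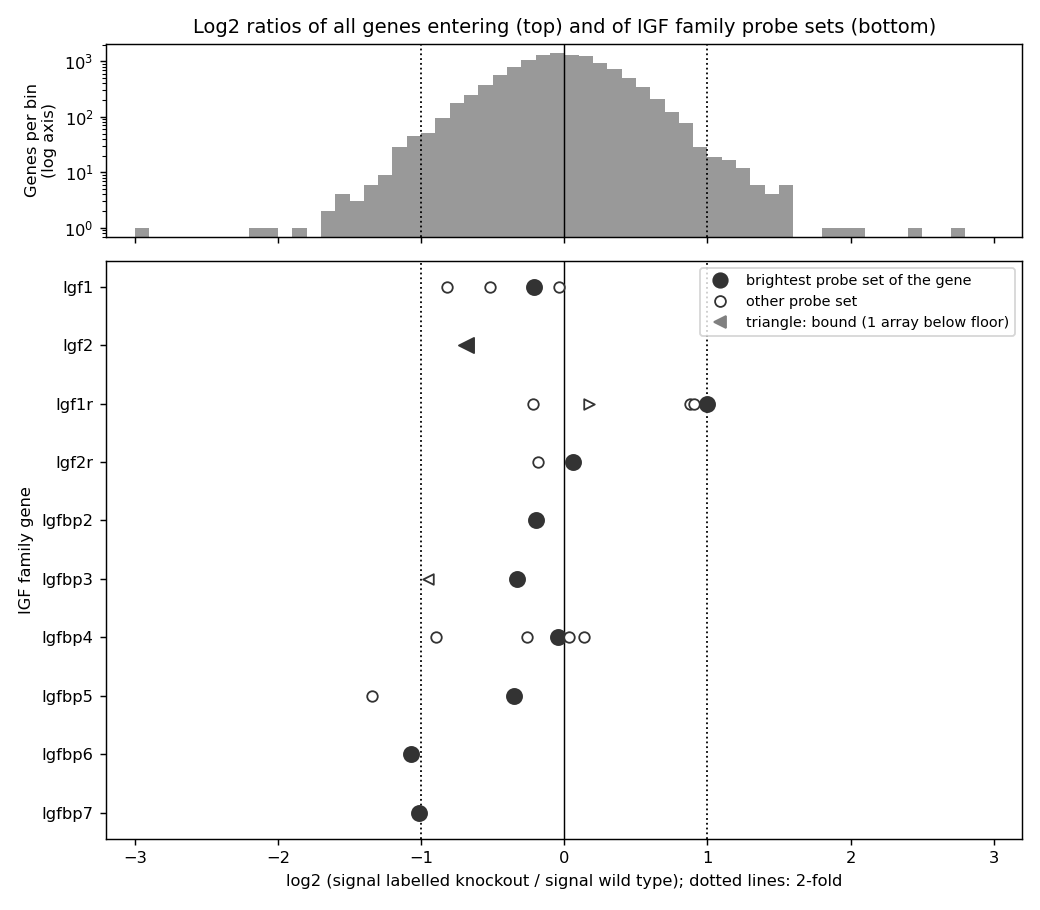
Log2 ratios of signal, labelled knockout over wild type, as a histogram of the 11671 genes entering (top, log count axis) and for each IGF family probe set that reached the floor (bottom; filled, brightest of its gene; triangles, bounds; dotted lines, 2-fold). Igf1r stands right of 0 in 4 of 5 probe sets, and Igfbp6, Igfbp7 and 1 Igfbp5 probe set stand left of the line for 2-fold lower.

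Of the binding proteins, Igfbp6, which prefers IGF2 over IGF1, had the lowest ratio of the 10 genes by the brightest probe set. Its only probe set, 1417933_at, read 1698 in wild type and 809 in the labelled knockout, 2.10-fold lower. It was number 68 from the lowest of 11671 genes. Igfbp6 stayed past 2-fold lower under the 3 other scalings and a pseudocount of 50, with log2 ratios from -1.10 to -1.01. The other floors and choices of probe set could not move it, since its only probe set lay well above the floor.

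Igfbp7, a low-affinity IGF binder secreted into the matrix and around vessels, was lower in the only probe set that could be read. Probe set 1423584_at gave 1367 in wild type and 678 in the labelled knockout, 2.02-fold lower, and was number 96 from the lowest. Its other probe sets were below the floor on both arrays, at 87.4 and 137 for 1423585_at and at 84.7 and 52.1 for 1437804_at, and they lay in opposite orders. Igfbp7 sat next to the threshold, so that median centring, with a log2 ratio of -0.96, and a pseudocount of 50, also with -0.96, moved it inside 2-fold without altering its direction.

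Igfbp5, which binds IGFs and matrix, was lower in both probe sets, by different amounts. Probe set 1452114_s_at read 4153 in wild type and 3252 in the labelled knockout, 1.28-fold lower. Probe set 1422313_a_at read 540 and 213, 2.53-fold lower, number 51 from the lowest of the 20538 probe sets that reached the floor. The difference of 0.99 between them on the log2 scale was larger than the range within 90.3% of genes. Among probe sets, 3 of the 24 IGF family probe sets that reached the floor were past 2-fold lower, this one and those of Igfbp6 and Igfbp7, where 1.04% of all such probe sets were, and 0 were past 2-fold higher, where 0.687% were. At 1.5-fold, 7 of the 24 were lower and 3 higher, where 7.62% and 4.85% of all such probe sets were.

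Igfbp3, which encodes the main carrier of IGFs in the circulation, was lower in both probe sets. Probe set 1458268_s_at read 320 and 255, 1.26-fold lower. Probe set 1423062_at read 321 in wild type and 146 in the labelled knockout, below the floor, and was at least 1.93-fold lower. All 4 signals were low, within 2-fold of the floor on either side. Igfbp2, a binding protein secreted by epithelial cells among others, read 2464 and 2151 in its only probe set, 1454159_a_at, 1.15-fold lower.

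Igfbp4, which in tissue is released from its ligands by the protease PAPP-A, had no common direction. Its brightest probe set, 1437405_a_at, read 2137 and 2071, a log2 ratio of -0.05 that became 0.01 under median centring. Of the 5 probe sets that reached the floor, 3 were lower and 2 higher. The highest, 1423756_s_at, read 705 and 777, a log2 ratio of 0.14. Probe set 1437406_x_at read 1245 and 1273, a log2 ratio of 0.03. Probe set 1423757_x_at read 1508 and 1262, a log2 ratio of -0.26. The lowest, 1421992_a_at, read 525 and 282, 1.86-fold lower. The other probe set listed under the source sequence of the latter, 1421991_a_at, was below the floor on both arrays, at 42.4 and 28.5. All 6 Igfbp4 probe sets, both of Igfbp5 and the only one of Igfbp2 carry suffixes (_a_at, _s_at or _x_at) that mark probes shared among transcripts, 11 of the 28 family probe sets in all.

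**Figure D3:**
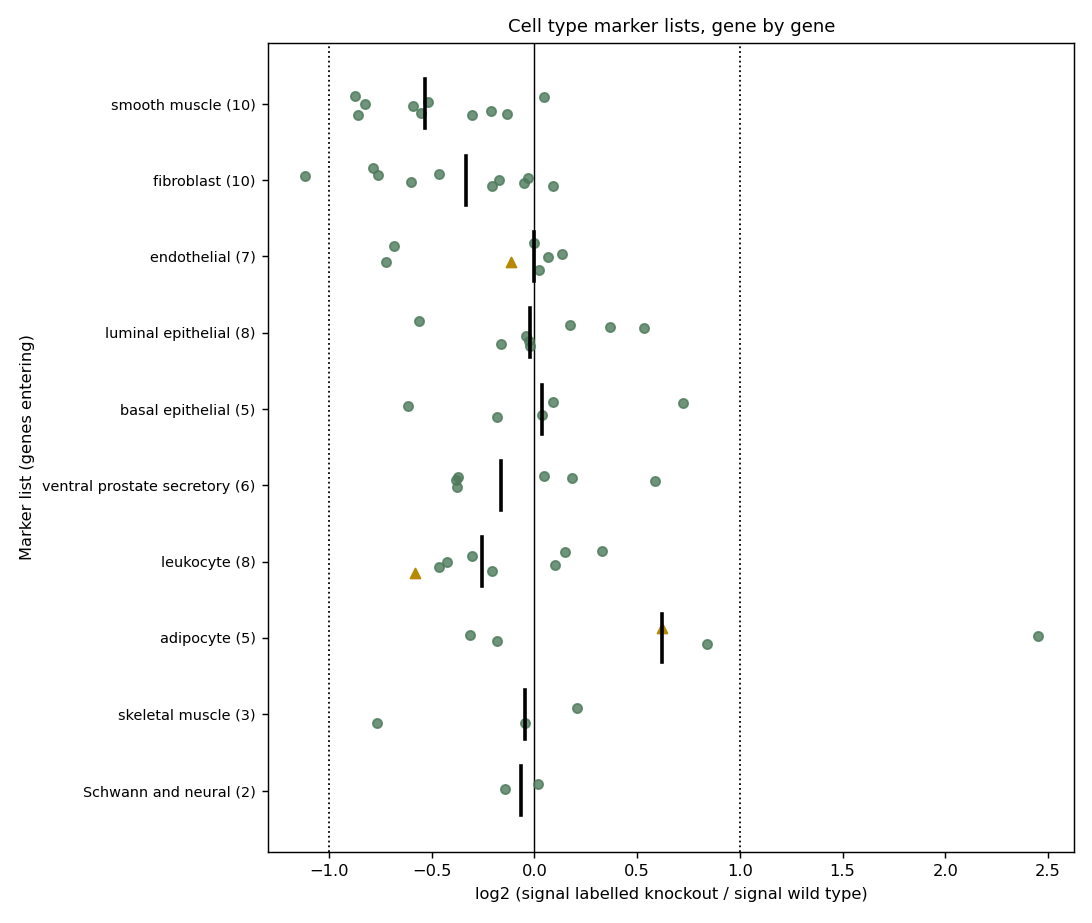
Log2 ratios (labelled knockout over wild type) of the genes of each cell type marker list, 1 point a gene by its brightest probe set, triangles for bounds, black bars for the median and dotted lines at 2-fold. Smooth muscle and fibroblast markers lie mostly left of 0, with medians of -0.54 and -0.33, while luminal epithelial markers centre on -0.02.

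Markers of the prostatic stroma, where Igf1 and several binding proteins are known to be made, were lower on the same array. Of 10 smooth muscle markers, 9 were lower, with a median log2 ratio of -0.54 and a summed signal of 53736 in wild type and 39712 in the labelled knockout. The contractile gene Cnn1 had the lowest ratio, -0.87, and Lmod1 the highest, 0.04. Of 10 fibroblast markers, 9 were lower, with a median of -0.33 and summed signals of 26442 and 21667, from -1.12 for the matrix gene Fbln2 to 0.09 for Fbln1. Each of these stromal markers reached the floor, and of all genes that did so 53.0% were lower. Their part in the lower IGF ligand and binding protein signals was not tested, and in bulk tissue fewer cells of a type and less RNA per cell cannot be told apart.

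Endothelial markers, for vessels that can express Igfbp7, did not share one direction. Of 7 that reached the floor 4 were lower and 3 higher, with a median of 0.00 and summed signals of 2500 and 2252 over all 10, and Pecam1, Vwf and Tie1 were below the floor on both arrays. Emcn, an endothelial sialomucin, had the lowest log2 ratio, -0.72, and Cldn5, a tight-junction gene, the highest, 0.13. Leukocyte markers were lower in 5 of 8, with a median of -0.26, summed signals of 5469 and 4955 and Cd3e below the floor. Adipocyte markers were higher in 3 of 5, with summed signals of 1604 and 3218, led by Car3 at 2.45. Lep and Cidec were below the floor. The adipocyte median of 0.62 was the limit for Adipoq, which was below the floor in wild type. Skeletal muscle markers had a median of -0.05 over 3 genes, and Schwann and neural markers one of -0.06 over 2.

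The epithelium, which carries the IGF1 receptor in the gland, had marker lists with medians near 0. Luminal markers were higher in 3 and lower in 5 of 8, with a median of -0.02 and summed signals of 61939 and 66403, from -0.56 for Spdef to 0.53 for Tmprss2. Basal markers were higher in 3 of 5, with a median of 0.04 and summed signals of 4583 and 4504, and Krt14 and Krt17 were below the floor. Of the luminal and basal markers measured Dst had the highest log2 ratio, 0.72, with its other 3 probe sets from 0.09 to 0.55. Igf1r was at 0.999 by its brightest probe set, and its probe sets ran from -0.22 to 0.999. The part of epithelial content in the Igf1r signal was not tested. The 3' over 5' signal ratio of the Actb control probe sets, a guide to RNA quality, was 1.25 in wild type and 1.65 in the labelled knockout. That of the Gapdh control probe sets was 0.71 in wild type and 0.85 in the labelled knockout. The part of RNA quality in the IGF family results was not tested.

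**Figure D4:**
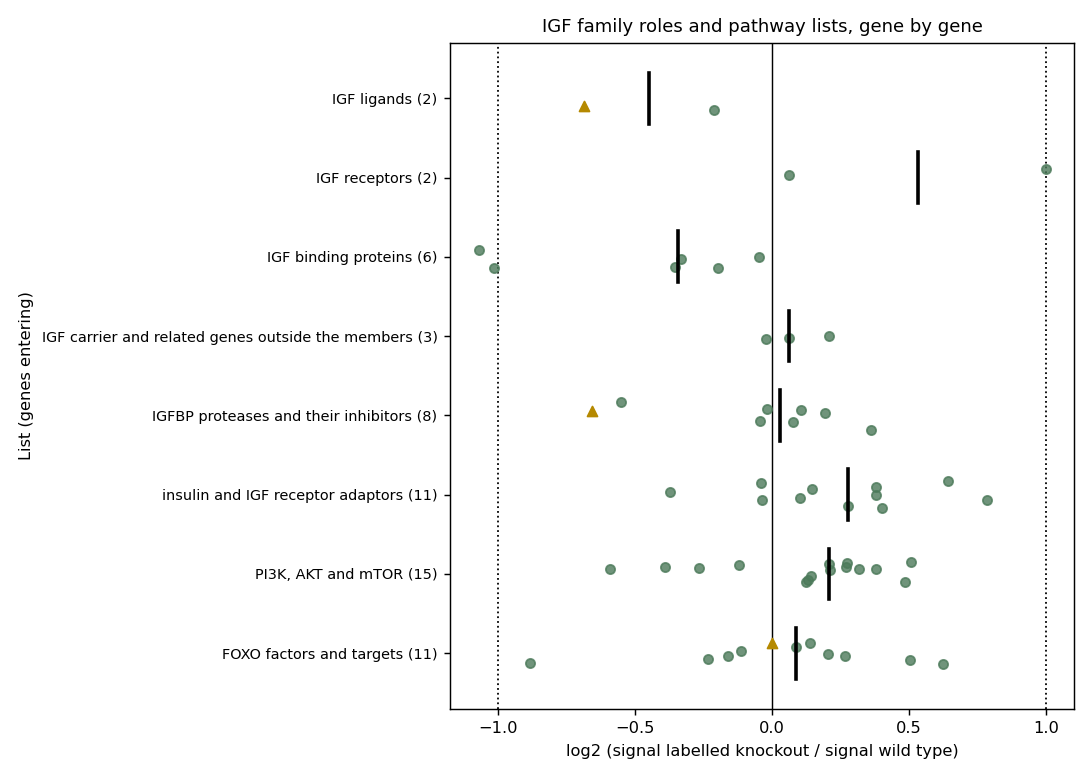
Log2 ratios (labelled knockout over wild type) of IGF family genes by role and of the other pathway genes, 1 point a gene by its brightest probe set, triangles for bounds, black bars for the median and dotted lines at 2-fold. Receptor adaptors and PI3K, AKT and mTOR genes have medians of 0.28 and 0.21, and no gene outside the family reaches 2-fold.

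The pathway around the family was described by 61 further genes, of which 48 reached the floor, and the others were below it on both arrays or are not used here. Of these, 32 were higher and 16 lower, where 53.0% of all genes were lower, and the median log2 ratio was 0.14. Of the 48, 0 passed 2-fold in either direction, where 0.591% of all genes were past it as higher and 0.883% as lower. At 1.5-fold, 3 were higher and 3 lower. These shares, 3 of 48 each, lie near the 4.69% and 6.26% of all genes.

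Adaptors that couple insulin and IGF receptors to their cascades were mostly higher, 8 of 11, with a median of 0.28. Irs1, the docking protein of both receptors, read 3000 in wild type and 4686 in the labelled knockout, 1.56-fold higher by the only probe set measured. Grb2, which links receptors to RAS activation, read 778 and 1340, 1.72-fold higher, but its other probe set had a log2 ratio of -0.16. Shc1, another adaptor of this route, was lowest at -0.37, with -0.60 in its other probe set, and Grb14, an inhibitor of the insulin receptor kinase, followed at -0.04. Irs2 was below the floor on both arrays. The median over this list turned to -0.02 when each gene was given its probe set nearest to 0, and to -0.04 with the median over probe sets, so that its direction depended on how a gene's probe set was chosen.

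Among PI3K, AKT and mTOR genes 11 of 15 were higher, with a median of 0.21 that became -0.02 with the median over probe sets. Pik3cb, a catalytic subunit of PI3K, had the highest log2 ratio, 0.51, by the only probe set measured. That probe set read 179 in wild type, near the floor of 166, and 255 in the labelled knockout. The regulatory subunit Pik3r1 followed at 0.49, with its other 3 probe sets also higher, from 0.07 to 0.25. Tsc2, a brake on mTOR complex 1, was lowest at -0.59, by the only probe set measured. The kinase gene Akt1 read 1992 and 1519, 1.31-fold lower, and its other two probe sets were lower too, at -0.68 and -0.46. By their brightest probe sets the PI3K subunits listed were above 0, and Akt1 and Akt2 below it, also under the 3 other scalings.

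FOXO factors, which AKT keeps out of the nucleus, and their targets were higher in 7 of 11, with a median of 0.09. Foxo1 had a log2 ratio of 0.62, with 1 of its other 2 probe sets opposite, and Ccng2, a cyclin induced by FOXO factors, had 0.51, with 0.21 in its other probe set. Sesn3, a stress-induced inhibitor of mTOR complex 1, read 10794 and 5862, 1.84-fold lower, but its other probe set had 0.13. Trib3, a pseudokinase that binds AKT, had -0.23.

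Genes that govern release of IGFs from their carriers showed no common direction. Of 10 binding-protein proteases and protease inhibitors, 8 reached the floor, 4 higher and 4 lower, with a median of 0.03. Stc2, an inhibitor of PAPP-A, was highest at 0.36, but both its other probe sets were lower, at -0.31 and -0.78, and Pappa2, a protease of Igfbp3 and Igfbp5, followed at 0.19. Adam28, a metalloprotease, was at least 1.57-fold lower and the serine protease Htra3 1.46-fold lower. Pappa, the protease of Igfbp4, read 141 and 102, and the metalloprotease Adam12 read 123 and 82.8, below the floor on both arrays.

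The receptors for insulin and growth hormone were nearer to no change than Igf1r. Insr, the closest relative of Igf1r, read 1181 and 1164, a log2 ratio of -0.02, and its other probe set was at -0.00. Ghr, the receptor through which growth hormone drives Igf1 in liver, had 0.21, but both its other probe sets were lower, at -0.44 and -0.14. Igf2bp3, an RNA-binding protein of Igf2 transcripts, had 0.06 and an opposite probe set at -0.37. Igfbp1, Igfals, Igfbpl1, Igf2bp1 and Insrr were below the floor on both arrays, and Igfbp1 read 15.0 and 14.7. Igfals and Igfbp1 are known as liver products.

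Some of the binding protein genes lie side by side. Igfbp2 and Igfbp5 are neighbours on GRCm38.p6, and their brightest probe sets had log2 ratios of -0.20 and -0.35. Igfbp3 lies next to Igfbp1, which was below the floor. Igfbp6 and Igfbp7, which had the lowest ratios by the brightest probe set, lie on different chromosomes, 15 and 5, as their promoter windows above show.

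**Figure D5:**
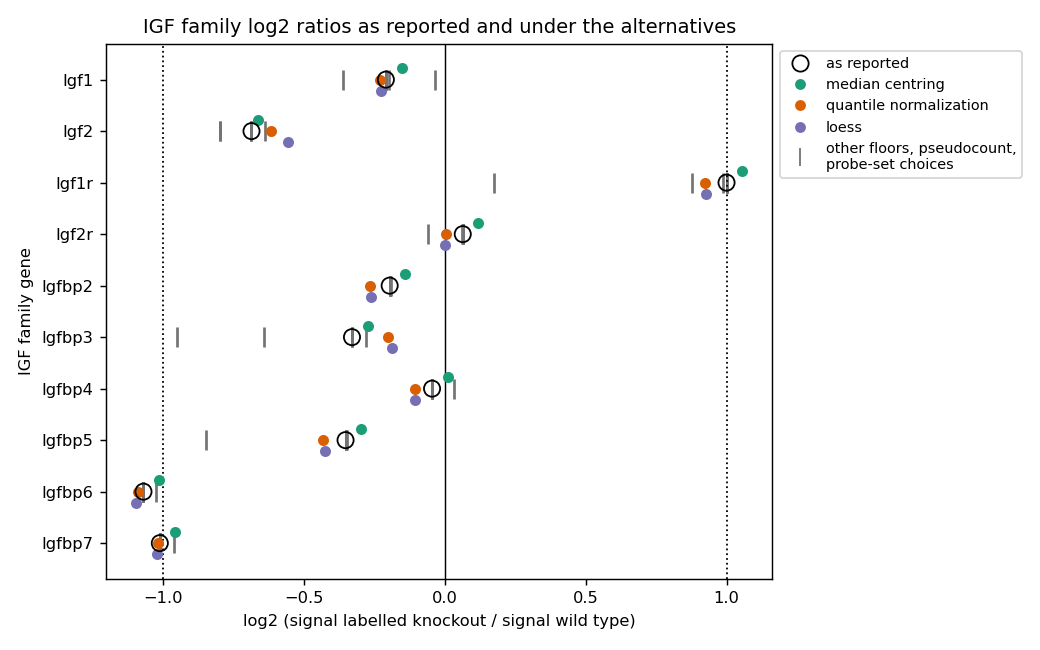
Log2 ratios (labelled knockout over wild type) of the 10 IGF family genes as reported (open circles), under 3 scalings (coloured points) and under other floors, a pseudocount and other choices of probe set (grey ticks), with dotted lines at 2-fold. Igfbp6 stays left of the 2-fold line, Igfbp7 lies close to it, Igf1r ranges from 0.17 to 1.06, and Igf2r and Igfbp4 cross 0.

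The directions of 8 of the 10 genes did not turn in any alternative that gave a value. For Igf2, Igfbp2, Igfbp6 and Igfbp7, with 1 probe set that reached the floor, choices of floor and probe set could not turn it. Scaling and probe-set choice were not varied together, and Igf1 probe set 1437401_at was at 0.02 under median centring. Igf1r had log2 ratios from 0.17 to 1.06, passed 2-fold under median centring at 1.06, and was at 0.92 under quantile normalization and 0.93 under loess. Its lowest value, 0.17, came from the probe set nearest to 0, which was the bound of 1452108_at. With no floor 1452108_at was at 0.74. Of the Igf1r probe sets measured on both arrays, the nearest to 0 was 1446303_at at -0.22, in the opposite direction. The unchanged sign of Igf1r for that choice therefore rests on the floor. Igf2 ranged from -0.80 to -0.56, Igf1 from -0.36 to -0.03 and Igfbp2 from -0.27 to -0.14. Igfbp3 ranged from -0.95, a limit, to -0.19 and Igfbp5 from -0.85 to -0.30. Igf2 as reported was a limit as well. Igf2r ranged from -0.06 to 0.12 and Igfbp4 from -0.11 to 0.03, and both changed sign. Under quantile normalization 2 of the 10 genes were past 2-fold lower and 0 higher, where 0.602% and 0.713% of all genes were. Under loess the family counts were 2 and 0 as well, where 0.54% and 0.728% of all genes were.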

How the data were processed

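Per the labels' protocols, 5 ug of total RNA, isolated by Trizol and a QIAGEN column, was made into biotinylated cRNA. The deposited values were linear probe-set intensities, called signals here, for which the authors' processing notes name GCOS 1.4 without settings. Trimmed of 2% of probe sets at either end, the mean was 500.0 for both arrays, which is a scaling of whole arrays to one target. Detection calls were not used here. Names came from GEO's platform annotation, and the 10 genes matched a mouse gene table by Entrez gene ID with 0 symbols differing. Signals below the floor of 166 were raised to it, and log2 ratios were taken with no pseudocount. Promoter windows came from RefSeq on GRCm38.p6, and the 50 bases after each start were left out. With 1 array a group no test was run. Calculations used Python 3.11.15, pandas 2.3.3 and statsmodels 0.14.6 (loess span 0.4). They were tested on simulated data whose planted changes were larger than any family ratio reported here. Recovery of changes near 2-fold was not checked.

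The family members were given, and the pathway and marker lists were chosen with earlier results of these data known. All family probe sets are named. In each pathway list the 2 highest and 2 lowest genes are named, together with genes below the floor and Pik3r1, Akt1, Insr and Igfbp1 where a sentence turns on them, and in marker lists the highest and lowest only where a family result needed them. Alternatives were 3 scalings, 3 floors, a pseudocount of 50, 3 choices of probe set and 2 fold thresholds.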

Additional observations from a re-analysis of the deposited data

How the results depend on the processing

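With 1 array a group, no replicate could be left out, and the number of arrays limits the precision of every value. No paired analysis was possible because each group has 1 sample. A value is said to move when it shifts by more than 0.35 (log2), the SD per probe set between probe sets of the same gene. The count of family genes past 2-fold, 2 lower and 0 higher, became 1 and 1 under median centring, where 79 and 86 of 11642 genes were. It became 1 lower with a pseudocount of 50, 0 lower at 3-fold, and 3 lower and 1 higher at 1.5-fold. The count of family probe sets past 2-fold was 3 lower and 0 higher. It became 1 higher under median centring, quantile normalization, loess and no floor. The lower count stayed 3 under quantile normalization and loess. It was 2 under median centring, the 70th-percentile floor and a pseudocount of 50, and 4 under the 30th-percentile floor and no floor. At 1.5-fold the counts were 3 higher and 7 lower, where 4.85% and 7.62% of all such probe sets were, and at 3-fold 0 lower. Leaving out suffixed probe sets left Igfbp2, Igfbp4 and Igfbp5 out and gave a family median of -0.69, which was the limit for Igf2. The binding-protein median was -1.01 there and -0.74 with the median over probe sets. Taking each gene's probe set nearest to 0 gave a receptor median of 0.12, with Igf1r at 0.17, and an adipocyte median of 0.02868. Raising the floor to the 70th percentile gave medians of 1.23 for adipocyte and -0.77 for skeletal muscle markers, and leaving out suffixed probe sets gave 0.22 for adipocyte markers. List medians kept their sign in 10 of 10 alternatives for smooth muscle, fibroblast, leukocyte, adipocyte, secretory and FOXO genes, 9 for PI3K, AKT and mTOR and for luminal, 8 for adaptors, 7 for basal, 6 for proteases and for carrier genes, 5 for endothelial and for skeletal muscle, and in 8 of 9 for Schwann markers.

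Over all genes, 69 higher and 103 lower calls became 203 and 505 for a floor set at the 30th percentile, 37 and 25 for the 70th, 967 and 1884 with no floor, 547 and 731 at 1.5-fold, and 5 and 7 at 3-fold. Lower calls were 63 under loess and 189 with a pseudocount of 50, and higher calls 42 with the median over probe sets and 39 with the one closest to no change. The share of calls that were higher moved from 40.1% to 52.1% under median centring, 54.2% under quantile normalization and 57.4% under loess.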

Other observations

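Of the other transcripts examined from the imprinted neighbourhoods of Igf2 and Igf2r, Igf2os alone reached the floor, in wild type only. Igf2os, antisense to Igf2, read 202 in wild type and 109 in the labelled knockout, at least 1.22-fold lower, the same order as its sense partner at 267 and 154. The strand that each probe set reads was not checked. A probe set listed for both Airn and Igf2r read 119 and 40.2, and one listed for both H19 and Mir675 read 50.3 and 48.5, all below the floor. Igf1os, antisense to Igf1, read 85.3 and 83.5.

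In Igfbp4 and Igfbp5 the probe set above the floor that is listed under a RefSeq transcript had a lower log2 ratio than the gene's other probe sets, at -0.89 against a mean of -0.03 for Igfbp4 and -1.34 against -0.35 for Igfbp5. In Igf1 the gap was smaller, -0.52 against -0.35. Over 793 genes with both kinds of probe set measured in both samples, the one listed under a RefSeq transcript was lower in 471, or 59.4%, with a median difference of -0.09 (SD 0.45 across genes, which are not replicates). The gap was lower still in 3.66% of these genes for Igfbp4 and in 1.89% for Igfbp5. This comparison was chosen after seeing the data.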
